A study of Mus musculus with 6 samples.

Results

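Cathepsins are the proteases that break down proteins inside lysosomes and endosomes. The data cover 10 of their genes, Ctse, Ctsa, Ctsb, Ctsc, Ctsd, Ctsh, Ctsk, Ctsl, Ctss and Ctsz, among 12393 genes measured on 6 Affymetrix mouse expression arrays. The arrays carry 16 probe sets, the sets of short probes that each report on a transcript, whose only annotated gene is one of these 10, out of 20380 probe sets with 1 gene symbol. The family was chosen by the difference between the genotypes in Ctse, which was the largest decrease of any gene. The Ctse values are therefore given as a description, with no test. The other 9 were taken by family name with results of these data already known, and the comparison asks whether they moved with Ctse.

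The cells were primary hepatocytes, the main metabolic cell of liver, harvested 24 h after plating on collagen and given no treatment. The transgenic mice, Alb/AEG-1, overexpress AEG-1 (astrocyte elevated gene 1, gene Mtdh), per the labels in hepatocytes alone, and the controls were wild type. Alb is the usual mark of the albumin promoter, which is active in hepatocytes. Mice of both genotypes were of a mixed B6/CBA strain, and each genotype has 3 arrays labelled as biological replicates. Whether replicates came from different mice or dishes is not in the labels, so a p-value reflects the variation among these arrays, which may be technical. They also do not say whether the controls were littermates. With 3 arrays a genotype, the precision is limited.

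Values are log2 levels after RMA (robust multi-array averaging), so a difference of 1 is a factor of 2 in signal, and differences are transgenic minus wild type throughout. Array medians lay between 5.61 and 5.64. The gene encoding AEG-1, Mtdh, was at 10.64 ± 0.21 in transgenic and 8.72 ± 0.07 in wild-type arrays (SD, n = 3) at its brightest probe set. Its other 5 probe sets gave differences from -0.27 to 0.24, so the increase rests on 1 of 6 probe sets. Of 10 measured hepatocyte markers, 0 were called as changed by limma, where 15.9% of all genes were called. Of the 10, 0 lay under the median level of 5.63 on all arrays, and their median difference was -0.01. Some of these markers lie near the array maximum of 14.99, such as Alb at 14.70 in transgenic and 14.69 in wild-type arrays. Whether differences are understated at that level was not tested. Across all 12393 genes the median difference was 0.01.

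Most cathepsins are made as inactive precursors, tagged with mannose 6-phosphate, carried to acidic compartments and cleaved there into active enzymes. They fall into catalytic classes. Ctse and Ctsd are aspartic proteases, Ctsa is a serine carboxypeptidase, and Ctsb, Ctsc, Ctsh, Ctsk, Ctsl, Ctss and Ctsz are cysteine proteases of the papain family. Cathepsins B, D and L are the abundant general lysosomal proteases of the liver, whereas cathepsin E is largely endosomal and is best known from stomach epithelium and blood cells.

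Ctse, which encodes the aspartic protease cathepsin E, was far lower in transgenic hepatocytes at its brightest probe set. Wild-type replicates 1, 2 and 3 had log2 levels of 8.75, 9.12 and 8.94. Transgenic replicates 1, 2 and 3 had log2 levels of 4.21, 5.28 and 4.37. Every transgenic array lay below every wild-type array, and transgenic replicate 2 stood above the other two. The means were 4.62 ± 0.58 and 8.94 ± 0.19 (SD, n = 3), a difference of -4.32 that corresponds to a 20.0-fold lower signal. In wild-type cells this probe set was brighter than 83.7% to 86.1% of all probe sets on its array. In transgenic cells it was brighter than 27.5%, 44.7% and 29.8%, which is under the median level. Near background the size of a fold is uncertain.

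The other Ctse probe set did not show this difference. Its log2 levels were 5.85, 6.19 and 5.81 in wild-type replicates 1 to 3 and 6.21, 6.13 and 5.96 in transgenic replicates 1 to 3. The genotypes overlapped, and the difference was 0.15, opposite in sign to that of the brightest probe set. Its suffix (_s_at) marks a probe set that may match several transcripts, and which transcripts each Ctse probe set detects was not tested. The genes next in the order of decrease were Lgals1, which encodes a galectin, at -3.80, and Cyp4a14, a fatty acid omega-hydroxylase, at -3.20.

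**Figure D1:**
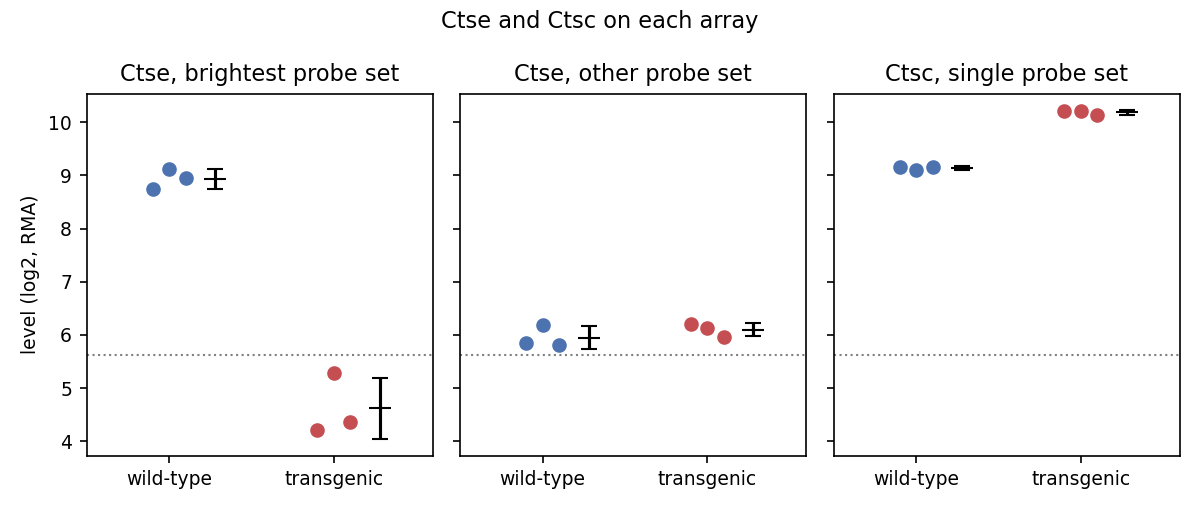
Log2 level on each array (points, wild-type in blue and transgenic in red) of the brightest and the other probe set of Ctse and of the Ctsc probe set, with the mean and SD of each genotype beside the points (n = 3) and the median level of all probe sets, 5.63, as a dotted line. The transgenic arrays fall from 8.94 to 4.62 on average at the brightest Ctse probe set, overlap the wild-type arrays at the other, and lie above them at Ctsc.

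The other aspartic cathepsin did not follow Ctse. Ctsd, the main aspartic protease of lysosomes, had log2 levels of 10.25, 10.31 and 10.23 in wild-type and 10.19, 10.28 and 10.18 in transgenic replicates 1 to 3. The groups overlapped, and the difference of -0.05 did not pass (SE 0.06, 95% interval -0.18 to 0.08, limma adjusted p = 0.627). The lower end of that interval is -0.18. Ctse was picked for the largest decrease of any gene, so a smaller difference for Ctsd was set by that choice.

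Among the cysteine cathepsins Ctsc rose. Ctsc encodes dipeptidyl peptidase I, which removes dipeptides from the amino end of proteins and activates the serine proteases of leukocyte granules. Its log2 levels were 9.16, 9.10 and 9.17 in wild-type and 10.21, 10.20 and 10.13 in transgenic replicates 1 to 3. The 3 transgenic arrays lay close together and well above the 3 wild-type arrays. The difference was 1.04 (SE 0.05, 95% interval 0.91 to 1.17), a 2.06-fold increase, with a limma adjusted p of 1.68e-05. Ctsc ranked 45 in the order of increase over all genes, and its single probe set leaves no second reading on this array.

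The general lysosomal enzymes Ctsb and Ctsl did not pass the test. Ctsb, a cysteine protease that cleaves both within chains and from their ends, was at 11.71, 11.67 and 11.62 in wild-type and 11.87, 11.88 and 11.76 in transgenic replicates 1 to 3 at its brightest probe set. Each transgenic array was above each wild-type array, but the difference of 0.17 missed the threshold (95% interval 0.03 to 0.30, limma adjusted p = 0.100). All 4 Ctsb probe sets had a higher transgenic mean, with differences from 0.11 to 0.33, and 0 of the 4 passed when every probe set was tested, where 12.0% of all probe sets passed. Ctsl, a strong endopeptidase and among the brightest signals on the array, was at 13.33, 13.39 and 13.40 against 13.34, 13.34 and 13.35. The genotypes overlapped, with a difference of -0.04 (95% interval -0.16 to 0.08, limma adjusted p = 0.705). This probe set was brighter than 99.4% to 99.5% of probe sets, and whether signal at that level understates differences was not tested.

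Ctsz and Ctsh were closest to the threshold after Ctsc. Ctsz, a carboxypeptidase also called cathepsin X, was at 11.25, 11.37 and 11.23 in wild-type and 11.54, 11.55 and 11.43 in transgenic replicates 1 to 3. The groups did not overlap, and the difference was 0.22 (SE 0.06, 95% interval 0.07 to 0.37, limma adjusted p = 0.0532). Its 3 probe sets gave differences of 0.22, 0.19 and 0.21. Ctsz passed under 6 of 14 alternative settings, with adjusted p from 0.00242 to 0.155 over all of them. Ctsh, an aminopeptidase, was at 11.46, 11.39 and 11.49 against 11.60, 11.60 and 11.65, again without overlap, and its difference was 0.17 (95% interval 0.04 to 0.29, limma adjusted p = 0.0788). Ctsh and Ctsb each passed under 2 settings, those that left out dim genes or used a variance trend with a robust prior.

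Ctsa, Ctss and Ctsk completed the family. Ctsa, which also protects beta-galactosidase and neuraminidase in a lysosomal complex, was at 9.55, 9.54 and 9.46 in wild-type and 9.69, 9.75 and 9.56 in transgenic replicates 1 to 3. Its genotypes were separated by a narrow gap, and the difference of 0.15 did not pass (95% interval 0.00 to 0.31, limma adjusted p = 0.172). Ctss, which processes the invariant chain in antigen-presenting cells, had a difference of 0.12 (95% interval -0.03 to 0.26, limma adjusted p = 0.268) and overlapping genotypes. Ctsk, the collagen-degrading protease of osteoclasts and fibroblasts, lay under the median level on all 6 arrays, from 4.50 to 4.82, and gave 0.09 (95% interval -0.11 to 0.28, limma adjusted p = 0.556).

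In all, 1 of the 9 cathepsins other than Ctse was called higher, 0 were called lower and 8 did not pass, where 15.9% of all genes were called in either direction and 6.83% as higher. Of the 9, 7 had a higher transgenic mean, against 53.1% of all genes, and the median difference was 0.15, against 0.01 over all genes. The genotypes did not overlap for 5 of the 9, each of them higher in transgenic cells, where 34.5% of all genes were without overlap and 16.9% in that direction. Among the 8 that did not pass, the 95% intervals together ran from -0.18 to 0.37.

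**Figure D2:**
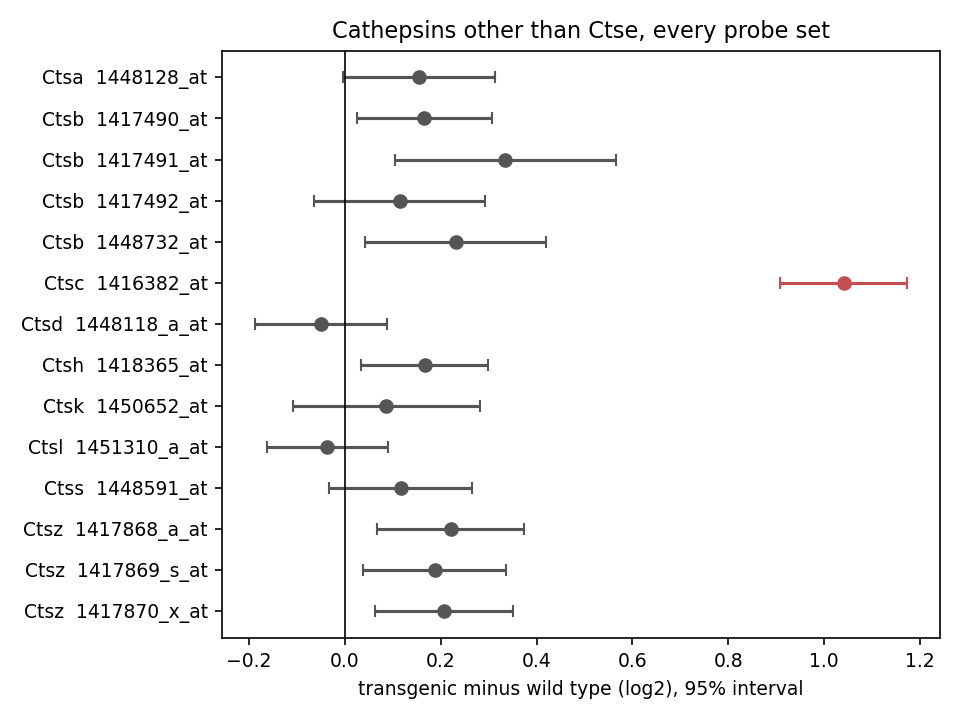
Difference in log2 level (points, with 95% limma intervals) for each of the 14 probe sets of the 9 cathepsins other than Ctse, fitted over all probe sets. Ctsc at 1.04, in red, is the 1 probe set past the threshold, and the remaining 13 lie between -0.05 and 0.33.

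Promoter sequences are shown for Ctsc, the cathepsin that rose, and for Ctsa, Ctsd and Ctss, which hold the letters of motifs linked to lysosomal or interferon control. RefSeq windows (build GRCm38.p6, 250 bases before to 50 after an annotated start, read along the gene's strand) were given for 7 of the 10 members, and none was used for Ctse, Ctsb or Ctsh. Capitals mark TCACGTGA, the palindromic core of the CLEAR element bound by TFEB, in Ctsa and Ctsd, a shortened interferon response pattern GAAANNGAA in Ctss, and AGGAAG, an ETS factor core, in Ctsc, where it is on the opposite strand and reads CTTCCT. The windows are Ctsc at chr7:88277835-88278134 (plus strand), Ctsa at chr2:164833523-164833822 (plus), Ctsd at chr7:142387778-142388077 (minus) and Ctss at chr3:95526536-95526835 (plus).
Ctsc: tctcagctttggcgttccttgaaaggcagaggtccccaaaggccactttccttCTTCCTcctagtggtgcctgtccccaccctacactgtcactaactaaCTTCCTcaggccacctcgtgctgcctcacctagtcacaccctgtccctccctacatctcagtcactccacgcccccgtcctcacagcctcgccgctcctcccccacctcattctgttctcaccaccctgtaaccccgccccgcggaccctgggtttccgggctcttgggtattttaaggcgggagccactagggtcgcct
Ctsa: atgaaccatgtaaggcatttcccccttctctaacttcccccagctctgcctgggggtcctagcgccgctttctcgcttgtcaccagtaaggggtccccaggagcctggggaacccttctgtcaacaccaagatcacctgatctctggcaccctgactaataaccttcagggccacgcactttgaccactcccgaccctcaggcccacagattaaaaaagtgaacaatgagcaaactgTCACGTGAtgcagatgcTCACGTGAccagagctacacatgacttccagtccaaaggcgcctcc
Ctsd: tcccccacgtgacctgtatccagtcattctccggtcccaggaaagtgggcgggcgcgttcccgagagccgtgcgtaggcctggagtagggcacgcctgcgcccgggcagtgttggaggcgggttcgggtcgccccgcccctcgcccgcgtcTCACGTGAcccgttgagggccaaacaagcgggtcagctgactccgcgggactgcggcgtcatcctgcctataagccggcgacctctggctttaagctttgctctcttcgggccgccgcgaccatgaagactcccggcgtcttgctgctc
Ctss: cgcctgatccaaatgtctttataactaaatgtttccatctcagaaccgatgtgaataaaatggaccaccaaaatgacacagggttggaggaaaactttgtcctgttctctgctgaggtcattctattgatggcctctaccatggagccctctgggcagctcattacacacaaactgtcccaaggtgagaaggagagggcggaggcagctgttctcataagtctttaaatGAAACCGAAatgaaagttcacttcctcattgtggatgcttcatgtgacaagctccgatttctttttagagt

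The printed Ctsa window holds TCACGTGA at bases 238 to 245 and 255 to 262, counted from 1 at the printed 5′ end, and the Ctsd window at bases 152 to 159. Ctsa has a further RefSeq window, at chr2:164832622-164832921, which holds none of the letters searched and is not printed. TCACGTGA occurs in 0.974% of 32851 promoter windows on either strand. The shorter CACGTG, which lies inside TCACGTGA, also occurs at bases 6 to 11 of the Ctsd window and in the Ctsl window, and in 7.15% of all windows. The Ctss pattern lies at bases 230 to 238, and GAAANNGAA occurs in 8.56% of windows. AGGAAG occurs at 2 places in the Ctsc window but also in the Ctsk and Ctss windows and in 35.4% of all windows. The other letters searched were AGATAA (11.2%), found in that of Ctsz, and TATAAA (13.6%), found in that of Ctss. None of Ctsa, Ctsd, Ctsl and Ctss passed the test of expression, and a match of letters is not a binding site.

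Further genes of the cathepsin family were mostly at low signal. Of 13 measured, 11 lay under the median level on all arrays, and the list median was 0.03. Called were 1 higher and 0 lower, where 6.83% of all genes were called higher and 9.05% lower. The gene called was Ctsf, a lysosomal cysteine protease, at 7.76 ± 0.07 against 7.39 ± 0.08 (SD, n = 3), a difference of 0.38 (SE 0.07, limma adjusted p = 0.00706), and it passed under all 14 alternatives. Among 7 other aspartic proteases 2 rose and 0 fell, with a list median of 0.14. Psen2, a catalytic subunit of gamma-secretase, rose by 0.49 (SE 0.06) at its brightest probe set, while its other probe set gave 0.10. Pga5, a pepsinogen gene under the median level, rose by 0.30.

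Among 15 genes listed as cathepsin inhibitors 3 rose and 1 fell, where 6.83% of all genes rose and 9.05% fell. The list median was 0.06. The list includes fetuins as relatives of the cystatins, and whether they inhibit cathepsins was not tested. Fetub, a circulating fetuin of the cystatin superfamily made by hepatocytes, rose by 0.28 (SE 0.05, limma adjusted p = 0.00888), and its relative Ahsg rose by 0.21. The genes of the mouse cathepsin L propeptide-like proteins went apart, with Ctla2b up by 0.49 (SE 0.12) and Ctla2a down, at -0.45 (SE 0.08). These genes are closely similar and may share probes, so their values are uncertain.

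The rest of the lysosome showed small and mixed differences. Of 30 lysosomal hydrolases and activators, 2 rose and 4 fell, where 6.83% of all genes rose and 9.05% fell. The list median was -0.03. Gm2a, the activator that presents GM2 ganglioside to hexosaminidase, rose by 0.31, while the acid lipase gene Lipa (-0.24), the beta-mannosidase gene Manba (-0.32) and the phospholipase gene Pla2g15 (-0.26) fell. Named after their values were seen, Ppt2, a thioesterase, also rose (0.24) and Gusb, the beta-glucuronidase, also fell (-0.31). None of 12 lysosomal membrane genes (0 called, smallest limma adjusted p 0.0627 for Npc1, the cholesterol exporter, at -0.23) and none of 15 proton pump genes (0 called, smallest limma adjusted p 0.126 for Atp6ap1, at 0.17) passed. The 6 other lysosomal peptidases also gave 0 calls, with Prcp, a carboxypeptidase, at 0.18 and Tpp1, a tripeptidyl peptidase, at 0.10. At an unadjusted p under 0.05 the limma counts were 4 for membrane genes, 3 for pump genes, 0 for the peptidases, 1 for the granule proteases and 0 for the hepatocyte markers. They were 9 for the hydrolases and activators, 7 for the sorting genes and 6 for the genes of lysosomal control. Of the 9 cathepsins other than Ctse 5 were under it, Ctsa, Ctsb, Ctsc, Ctsh and Ctsz, all higher in transgenic cells. The counts were 4 for further cathepsin family genes, 3 for other aspartic proteases, 4 for the inhibitors and 3 for MHC class II processing. Among the marker lists the largest count was 8 of 18, for macrophages. The share of all genes at that level was not counted, so these counts have no background to be read against.

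Of 15 sorting genes, 0 rose and 1 fell, Gga2, an adaptor for mannose 6-phosphate receptors, at -0.32 (SE 0.06, limma adjusted p = 0.0138). Of 11 genes that control lysosome formation, 0 rose and 1 fell, Rraga, a GTPase that brings mTORC1 to the lysosome, at -0.26 (SE 0.05, limma adjusted p = 0.0110). Over all the lists of genes around the cathepsins, 8 of 140 rose and 9 fell, with a median difference of 0.02, where 6.83% of all genes rose and 9.05% fell. The calls of Ctsf, Psen2, Fetub, Ctla2a, Gm2a and Rraga held under each alternative in which they were tested. Those of Ahsg, Ctla2b, Pga5, Lipa, Manba, Pla2g15 and Gga2 were each lost without transgenic replicate 3 and, apart from Gga2, without other single arrays too.

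The genes that cathepsins S and C serve in immune cells were measured too. Of 8 genes of MHC class II processing, 0 rose and 2 fell, where 6.83% of all genes rose and 9.05% fell. These were H2-Aa at -0.27 and H2-Eb1 at -0.22, both with a limma adjusted p of 0.0402. Their calls were lost under 7 and 8 alternatives. With the mean of its probe sets H2-Aa gave -0.03. Of 9 granule proteases activated by Ctsc, 0 passed and 8 lay under the median level on all arrays. The nearest was Gzmb, granzyme B, at 0.21 (limma adjusted p = 0.0661).

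**Figure D3:**
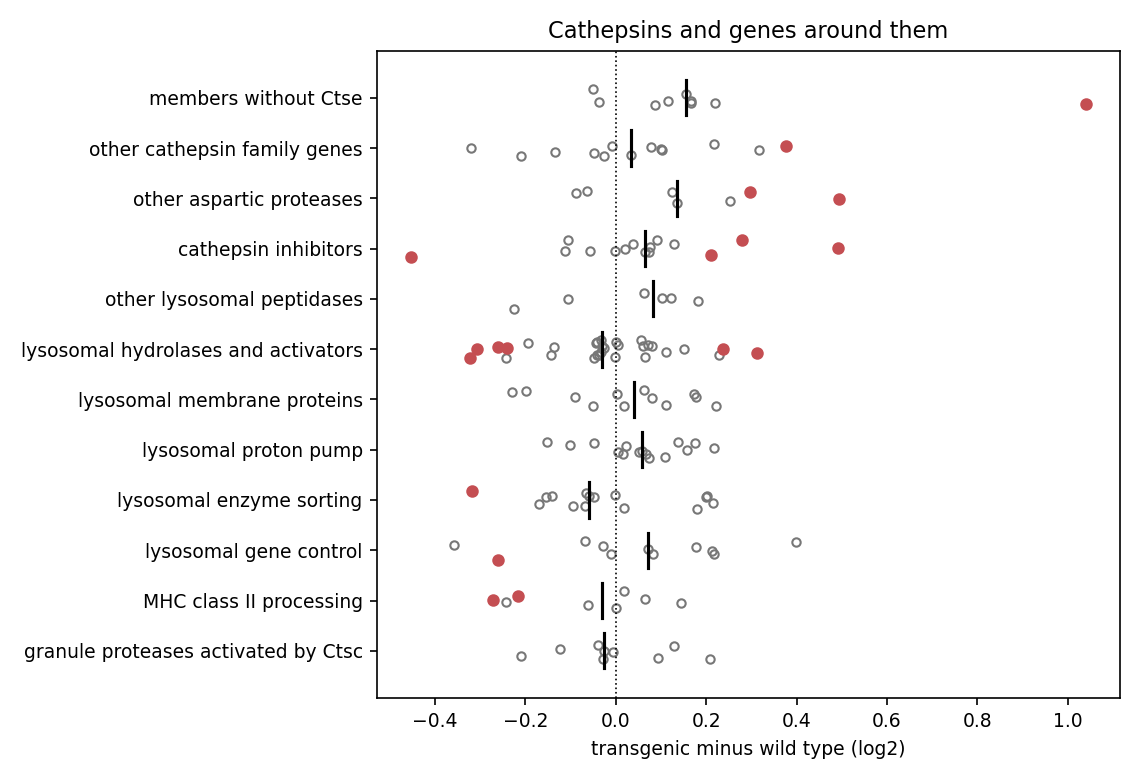
Difference in log2 level of each measured gene in the lists around the cathepsins, with genes past the limma threshold filled in red, the rest open, and a black bar at each list's median. Ctsc at 1.04 lies apart from the other genes shown, whose differences run from -0.45 to 0.49, and Ctse at -4.32 is left out.

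Markers of other cells that carry cathepsins were set beside these values. Fewer cells of a type and less RNA per cell cannot be told apart in such samples. Macrophages are rich in Ctsc, Ctss and Ctsz. Of 18 macrophage markers 4 rose and 1 fell, where 6.83% of all genes rose and 9.05% fell, with a list median of 0.14 against 0.01 over all genes. Their summed level, in linear signal units, ran from 1708 to 1754 in transgenic and from 1474 to 1627 in wild-type arrays. Ptprc, the leukocyte antigen CD45, rose by 0.61, the mannose receptor gene Mrc1 by 0.46 and the scavenger receptor gene Marco by 0.69, while Cd163 fell, at -0.31. The complement gene C1qc, named after its value was seen, rose by 0.35. Ptprc, Cd163, Aif1, Fcgr1 and Tyrobp lay under the median level on all arrays. Beside them, Ctss, at 0.12 with overlapping genotypes, and Ctsz, at 0.22 without overlap, did not pass. The part of macrophages in the Ctsc, Ctss and Ctsz values was not tested.

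For Ctse, the cell types best known to carry it were checked in the same way, where 6.83% of all genes rose and 9.05% fell. Of 8 gastric surface markers 0 rose and 1 fell, Anxa10, at -0.26, while its other probe set gave 0.16 and the mean of its probe sets -0.05 (limma adjusted p = 0.610). Of the 8, 6 lay under the median level on all arrays. The summed gastric level was 378 to 380 in transgenic and 342 to 368 in wild-type arrays. Of 8 erythroid markers 1 rose, the carbonic anhydrase gene Car1 (0.68), and 2 fell, Car2 (-0.66) and the erythroid factor Klf1 (-0.43). The summed erythroid level overlapped, at 1409 to 1474 against 1460 to 1571. Among 7 dendritic and B cell markers 1 fell, Ighm (-1.80), the immunoglobulin heavy chain, with 6 of the 7 under the median level, and their summed level of 251 to 259 against 511 to 559 is carried by Ighm. Of 11 Ighm probe sets 2 were lower and 1 higher, with differences from -2.10 to 0.31. The part of these cells in the Ctse difference was not tested.

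The remaining marker lists are read against the same shares, 6.83% of all genes higher and 9.05% lower. Of 10 stellate cell and fibroblast markers, cells in which Ctsk is known, 1 rose (Lum, by 0.20) and 0 fell. Of 8 osteoclast markers 1 rose (Tnfrsf11a, by 0.25 at its brightest probe set and -0.01 at the other) and 0 fell. Under the median level on all arrays lay 6 of the 10 stellate markers, with Lum, and 6 of the 8 osteoclast markers, with Tnfrsf11a. Of 10 markers of sinusoidal endothelium 2 rose, the lectin gene Clec4g by 0.50 (0.17 at its other probe set) and the receptor gene Kdr by 0.41, and 0 fell. The summed endothelial level did not overlap, at 929 to 990 in transgenic and 781 to 873 in wild-type arrays. Of 6 bile duct markers 1 rose, Epcam, by 1.52, and 0 fell. Their summed level did not overlap either, at 360 to 377 against 309 to 322, and that separation is carried by Epcam. Sox9, the brightest of the 6, gave -0.02. The summed levels overlapped for the stellate list (899 to 941 against 850 to 914), the osteoclast list (1224 to 1254 against 1205 to 1309) and the neutrophil list (186 to 205 against 186 to 196). Most of the osteoclast sum is Acp5, at log2 means of 10.05 in transgenic and 10.08 in wild-type arrays. The part of the cells of these lists in the cathepsin values was not tested. Of 9 neutrophil markers, all under the median level on every array, 0 passed by limma and 0 had an unadjusted p under 0.05. The calls of Marco, Cd163, Anxa10, Lum, Tnfrsf11a and Kdr were each lost on leaving out any of 3 or more single arrays, while those of Ptprc, Mrc1, Car1, Car2, Klf1, Ighm, Clec4g and Epcam held under each alternative in which they were tested.

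Genes next to Ctse on chromosome 1 were compared, using the reference gene order of assembly GRCm38.p6. Of the 5 measured genes on each side, 1 was called higher and 2 lower by limma, where 15.9% of all genes were called. Pm20d1, an enzyme that forms N-acyl amino acids, is separated from Ctse by 1 other measured gene, Rab7b, a lysosomal trafficking GTPase. The log2 levels of Pm20d1 were 10.93, 11.24 and 11.27 in wild-type and 9.49, 9.27 and 9.36 in transgenic replicates 1 to 3. All transgenic arrays lay well below all wild-type arrays, and the difference was -1.78 (SE 0.10, 95% interval -2.01 to -1.54, limma adjusted p = 2.81e-05). Both Pm20d1 probe sets gave it, at -1.78 and -1.79. The mice were of a mixed strain and the labels do not say whether the controls were littermates, so a difference in the inherited B6 or CBA alleles of this stretch of chromosome 1 cannot be told apart from the transgene in the Ctse and Pm20d1 values.

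The genes around this pair differed less. Rab7b, between them, gave -0.03 (95% interval -0.21 to 0.15) at a level under the median. On the far side of Pm20d1, Slc41a1, Rab29 and Nucks1 gave 0.08, -0.01 and -0.14 and did not pass. On the other side of Ctse, Avpr1b, Srgap2 and Eif2d did not pass, with -0.05, 0.16 and -0.06. Ikbke, a kinase of interferon signalling, rose by 0.25 (limma adjusted p = 0.0367) and Rassf5, a Ras effector, fell, at -0.31 (limma adjusted p = 0.0147). Without probe sets that may match several transcripts Rassf5 gave -0.18 (limma adjusted p = 0.511), and Ikbke missed the threshold under 6 of 14 alternatives.

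**Figure D4:**
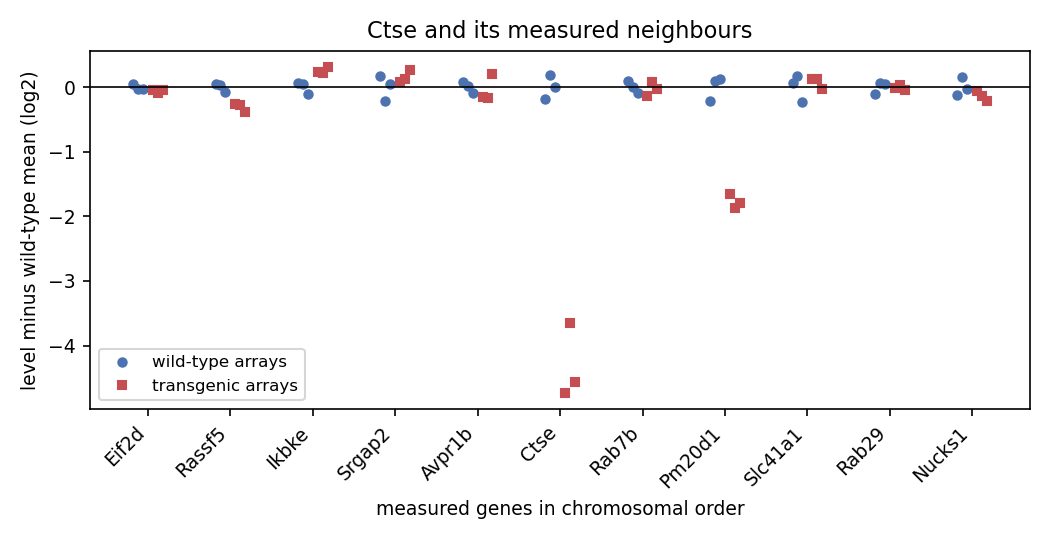
Log2 level minus the wild-type mean of each gene on every array (blue circles wild-type, red squares transgenic), for Ctse and the 5 measured genes on each side in chromosomal order, not to scale in distance. Ctse and Pm20d1 are the 2 genes whose transgenic arrays lie more than 1 below the wild-type mean.

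Over the 6 arrays, the genes whose centred log2 profile lay nearest to that of Ctse by Euclidean distance were Lgals1 (1.25), Cyp4a14 (1.48), the lipid droplet enzyme gene Hsd17b13 (2.31), the fatty acid transporter gene Cd36 (2.33) and Cyp2c39 (2.45). The last 3 had log2 differences of -2.77, -2.51 and -2.50. The distance depends on the size of a decrease as well as its spread and was taken from the Ctse values that chose the family, so the order is a description.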

How the data were processed

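Gene expression was measured on 6 arrays, 3 per genotype. The submitters' processing notes name RMA and Affymetrix Expression Console, with no version, and the deposited values are log2 levels per probe set. RMA equalises the distribution of values between arrays, so differences are relative to the rest of the transcriptome. Of 22690 probe sets, 64 were controls, 20380 carried 1 gene symbol in the platform annotation, 691 several and 1555 none. The probe set of a gene with the largest average over all arrays stood for it. Transgenic and wild-type arrays were compared with limma (version 3.58.1, R 4.3.3; lmFit and eBayes, two-sided), with Benjamini-Hochberg adjustment over all 12393 genes, or over all probe sets where probe sets are given, and a threshold of 0.05. The procedure was tested on simulated data, where it recovered 134 of 200 genes changed by 0.5, with 5 false calls. It recovered 195 of 200 genes changed by 1, with 9 false calls. Smaller changes, such as those of most cathepsins here, were not simulated. In the data 15.9% of genes were called, in both directions, so the simulated recovery may not carry over to them. Intervals are limma's 95% intervals, not adjusted for the number of genes.

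The cathepsins and the gene lists were chosen with earlier results of these data known. Lists are described by counts and medians, with no set test. Named genes are all members, the 2 decreases next after Ctse, in each list up to 4 genes past the threshold with the smallest p (or the 2 with the smallest p where none passed), the 5 measured genes on each side of Ctse, and the 5 genes nearest to its profile. Alternatives covered gene representation, a filter on dim genes, scaling, the variance prior, array weights, each array left out, and a replicate block. No batch label was used here.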

Additional observations from a re-analysis of the deposited data

How the results depend on the processing

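Ctsc was higher under all 14 alternatives, by 1.02 to 1.07 (largest limma adjusted p 0.00111), and Pm20d1 was lower under all 14, by differences from -1.88 to -1.71 (largest limma adjusted p 0.00164). The Ctse difference of -4.32 became -2.09 as the mean of its 2 probe sets and 0.15 at the other probe set, and leaving out 1 array gave -4.65 to -4.12. Of the 9 other cathepsins, 0 were called lower under any alternative. Called higher were 2 with the mean of probe sets, after quantile normalization or with array weights, and 4 without dim genes (fewer genes tested) or with a variance trend and robust prior, against 1 in the comparison as reported. Leaving out 1 array gave 1 to 2, the 2 without wild-type replicate 2, and 1 to 2 called member probe sets. Genes around the cathepsins called higher numbered 15 with the mean of probe sets, 15 without dim genes and 19 with the variance trend, where those called lower numbered 18. Calls over all genes also changed under these settings, with 885, 968 and 1112 higher against 846 as reported. After quantile normalization 875 were higher, and with array weights 931. All but the 968 are of 12393 genes. How many genes were left without dim genes was not counted, so the 968 higher and 1389 lower there give no share. The 4 cathepsins called under that filter therefore have no background to be read against. With the variance trend 1504 of all genes were lower, against 1121 as reported. Leaving out 1 array gave 4 to 6 higher and 3 to 8 lower of the genes around the cathepsins, and 1 to 3 called neighbours of Ctse. Over all genes it gave 540 to 739 higher and 727 to 961 lower, the fewest in both directions without transgenic replicate 1. The causes of these shifts were not tested.

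Same-numbered arrays were not paired, since the correlations of their deviations from the group means were -0.01, -0.01 and 0.10. With the replicate block 640 genes were higher and 865 lower, and 1 of the 9 cathepsins was called. Of 767 values of 56 named genes under alternatives, 655 kept their side of the threshold, 91 lost a call, 21 gained one and 0 reversed a call. The low level of Ctse in transgenic cells and of Ctsk limits what their values can show.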
